A study of Mus musculus with 12 samples.

Results

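Footpad skin of mouse embryos at E17.5 was compared between embryos with a deletion of beta-catenin in the skin and wild-type embryos, on the 4 arrays of that stage (2 of each genotype) out of 12 arrays in the study. The samples were those labelled E17.5 and knockout or wild type. Of 42006 non-control probes on the array, 27832 were tested. The other 8 arrays hold the same 2 genotypes at E15.5 and E16.5, with 2 arrays a group. All 12 samples are labelled strain C57BL/6 and tissue footpad skin, and the wild-type samples carry no other allele or agent in the labels. The driver of the skin-specific deletion and the number of embryos behind each RNA are not given in the sources used here. The labels do not tell whether the 2 arrays of a group stand for different embryos. A p-value here therefore reflects only how far these samples lay apart, and that spread may be technical. Footpad RNA was labelled with the green dye Cy3 on every array. The red dye Cy5 carried a common reference, a pool of RNA from 11 mouse cell lines mixed at a ratio of 2 to 1 with RNA of embryonic stem cells (129ES). Values are given as log2 of footpad over reference, so that a difference of 1 between genotypes is a factor of 2.

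Beta-catenin carries the canonical Wnt signal. Wnt ligands stabilise it, and it enters the nucleus and activates target genes together with Lef and Tcf factors. In the skin this signal is needed to start placodes, the epithelial thickenings from which hair follicles, mammary glands and sweat glands grow, and the Eda and Shh pathways act after it. In mice the eccrine sweat glands are confined to the footpads, where gland buds form and grow down into the dermis during late gestation. The series title places the knockout in a cascade of these pathways in the sweat gland, and this comparison addresses the last stage sampled. The array files give neither gene symbols nor genome positions for their probes. Results are therefore given by probe code, and the transcript of the deleted gene was not analysed here. Of the marker lists for footpad cell types, only the few genes given at the end could be matched to a probe.

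In the E17.5 knockout 193 probes differed from wild type, 0.693% of those tested, by limma's moderated test at a Benjamini-Hochberg adjusted p under 0.05. Of these, 89 (0.32%) were higher in knockout footpads and 104 (0.374%) were lower. Both knockout arrays lay on 1 side of both wild-type arrays for all 193 called probes, and for 17012 of the tested probes (61.1%). Among called probes with Cy3 well above background on all 4 arrays, 44 were higher by a median of 2.07-fold and 91 were lower by a median of 2.10-fold. The largest measured changes were 9.08-fold up and 15.6-fold down. Fold sizes depended on the processing: with normexp background correction and loess normalization the medians over the same 44 and 91 probes were 1.70-fold and 1.79-fold, and the largest changes 4.62-fold and 6.15-fold. The count fell to 44 without knockout replicate 1, to 53 without knockout replicate 2, to 108 when wild-type replicate 1 was left out and to 92 when wild-type replicate 2 was. Calls that held in each of these 4 repeats numbered 30, made up of 11 higher and 19 lower probes. With normexp and loess the count of called probes was 428, split into 246 higher and 182 lower, and with Cy3 alone it was 416, split into 233 and 183.

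**Figure D1:**
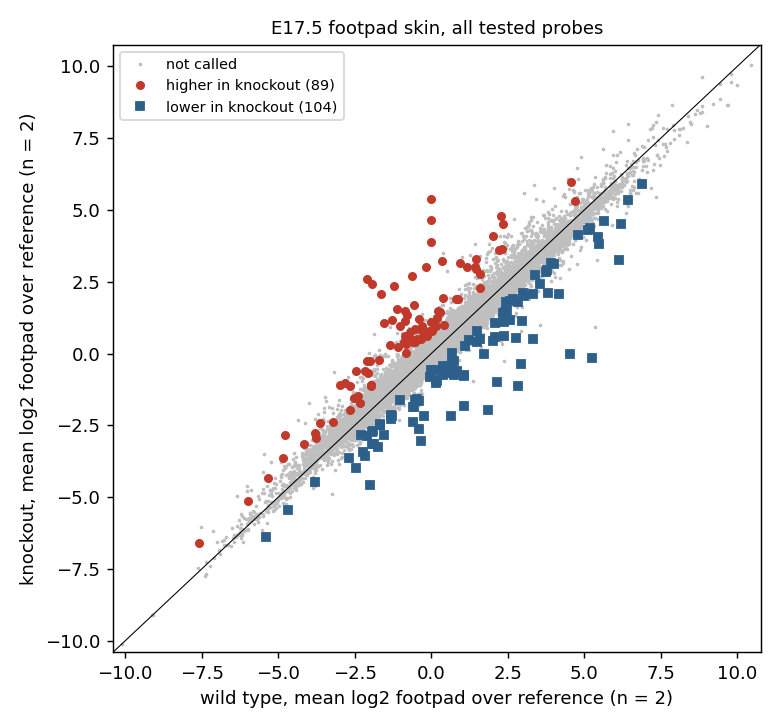
Mean log2 footpad over reference in wild type (x axis, n = 2 arrays) against knockout (y axis, n = 2 arrays) at E17.5, 1 point per tested probe. Most probes lie on the diagonal; the 89 higher (red circles) and 104 lower (blue squares) probes stand away from it, and those in vertical or horizontal lines at 0 have no measured signal in that genotype.

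Detection differed between the 2 directions. A tested probe needed Cy3 well above background on at least 2 of the 4 arrays. A probe dim on both arrays of 1 genotype therefore passed only through the other genotype, and its direction is not independent of this filter. Of the 89 higher probes, 38 were not well above background on either wild-type array and 7 on 1 of them. Of the 104 lower probes, 8 were not well above background on either knockout array and 5 on 1 of them. Among all tested probes, 870 were dim on both wild-type arrays and 25 on both knockout arrays. The array software can replace a dim signal by a surrogate value, and a ratio of exactly 0 means that both dyes were replaced. Surrogate use is not given here by probe, and a dim signal need not be a surrogate. For such a probe only a lower bound on the difference in Cy3 is given, taken from the weakest signal that counted as measured on the dim arrays. It does not bound the ratio to the reference. Of the 38 higher probes, 35 had a bound above 1. It ran from at least 1.04-fold to at least 2.77-fold, with a median of 1.22. The rest had no such bound. Mean normalized log2 Cy3 in knockout and wild type was 6.79 and 6.85 for Z00075978-1 and 6.81 and 6.83 for Z00078193-1, so not higher in the knockout. For Z00072031-1 it was 6.21 and 6.07. The bound for the 8 lower probes ran from at least 1.14-fold to at least 2.26-fold, with a median of 1.43. Cy3 was well above background for 66.3% and 67.9% of probe spots on the knockout arrays and for 63.6% and 63% on the wild-type arrays. The part of this difference in the count of higher probes was not tested. With only probes measured in Cy3 on all 4 arrays tested, an alternative added after the data had been seen, 44 were higher and 88 lower.

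All 4 E17.5 arrays were on 1 slide, with the knockout at positions 1 and 2 and wild type at positions 3 and 4, so genotype and position cannot be told apart. Each stage had a slide of its own, with the genotypes at the same positions. Replicate arrays correlated at 0.9906 in the knockout and 0.9882 in wild type across probes, which are not independent replicates. In the reference channel no genotype difference exists by design. There, 23 of the 27833 probes that passed the detection filter were called (16 higher and 7 lower in knockout arrays). Of these 23, 3 were also among the 193, namely Z00008117-1, Z00034984-1 and Z00067510-1. Over all tested probes, the share called in the ratio was 0.693%. Footpad skin is a mixture of cells, so fewer cells of a type and less RNA per cell cannot be told apart.

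The probes on which the results turn are identified by the first 30 of their 60 bases, written 5′ to 3′ on the probe strand as the array files give them. The first 4 were higher in the knockout and the next 4 were lower, and the last pair were reduced in the knockout while rising in it between earlier stages and E17.5.

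Z00023605-1: tagtcacagagatgctggagccccaaccta
Z00011465-1: aacacttttttgataccttctattgtcaaa
Z00043839-1: ctgtccttatagagcaatgactcgaagact
Z00026847-1: gaagatggacaaatcttaaaccaaattaat
Z00068163-1: tctcattgctcaccccaagctccggaagca
Z00030965-1: ggaaccaagtttgggaacccacaacctccc
Z00077373-1: gagcccacgaggatggagcctgtagtttgt
Z00029510-1: tattttgttttgtgatccatgtcagaaaag
Z00008117-1: ccccaactctatgatatgtgcttgtttagt
Z00054665-1: tttagcaaatccagttgccattgctttatg

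Among lower probes measured in both genotypes, Z00030965-1 read -1.84 and -1.81 in the knockout arrays and 1.17 and 0.98 in wild type. Knockout footpads were thus below the reference pool and wild-type footpads above it, with no overlap. The log2 difference was -2.90 ± 0.16 (SE, n = 2 per group), or 7.46-fold, with an adjusted p of 0.000133 (limma). Z00070179-1 read -3.16 and -2.89 in the knockout and -0.48 and -0.17 in wild type, below the reference in both genotypes. Its difference was -2.70 ± 0.16 (SE, n = 2), or 6.50-fold, with an adjusted p of 0.000177 (limma). Both calls held under every alternative tried, while the folds with normexp and loess were smaller, at 2.94 for Z00030965-1 and 2.53 for Z00070179-1.

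Z00068163-1 had the largest measured reduction, with -1.01 and -1.27 in the knockout and 2.98 and 2.66 in wild type. The groups were far apart, by 15.6-fold (-3.96 ± 0.50 on the log2 scale, SE, n = 2), with an adjusted p of 0.00964 (limma), and by 6.15-fold with normexp and loess. Its call was lost when any 1 of the 4 E17.5 arrays was left out and with no detection filter, over a range of adjusted p from 0.000199 to 0.0904. The fit takes each probe's spread from all 12 arrays, and at E16.5 the 2 knockout arrays of Z00068163-1 read 0.83 and -1.11.

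Z00071322-1 read -2.27 and -2.11 in the knockout, where 1 of the 2 arrays was above background, and 0.72 and 0.58 in wild type. It was lower with an adjusted p of 0.000311 (limma). No exact fold is given, since the ratio of the dim knockout array may rest on a surrogate, and the log2 difference was -2.84 here and -1.16 with normexp and loess. Z00005948-1 was far below the reference in both genotypes, at -4.37 and -4.77 in the knockout and -1.87 and -2.13 in wild type. This was a 5.94-fold reduction with an adjusted p of 0.00467 (limma), which rose to 0.056 without knockout replicate 2 and was as low as 0.000366 in another alternative.

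Z00054665-1 was above background in Cy3 on all 4 arrays, at 3.66 and 2.85 in the knockout and 5.90 and 6.35 in wild type. It fell by 2.87 ± 0.31 on the log2 scale (SE, n = 2), with an adjusted p of 0.00457 (limma), and by 1.69 with normexp and loess. Its reference signal was not above background on any of the 4 arrays, so its height over the reference rests on dim reference signals. A second probe with the same 60 bases is described with the overlapping probes.

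A further group of lower probes had signal in wild type only. Z00077373-1 read 5.61 and 4.93 in wild type and 0.00 and -0.34 in the knockout, where neither array was above background. The wild-type signal was at least 1.82-fold higher, with an adjusted p of 0.00113 (limma). Z00022557-1 read 4.47 and 4.63 in wild type and 0.00 on both knockout arrays, at least 1.56-fold higher in wild type (adjusted p 0.00113, limma). The reference was dim for both probes on all 4 arrays, so the large ratios rest on dim reference signals, which may be surrogates.

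Z00046552-1 read 1.99 and 1.75 in wild type against -1.88 and -2.09 in the knockout, over a measured reference, and was at least 1.73-fold higher in wild type (adjusted p 0.000234, limma). Z00029510-1 read 3.00 and 2.86 against 0.00 and -0.73, with at least 1.30-fold more in wild type (adjusted p 0.000753, limma). Signal was thus present on both wild-type arrays and on neither knockout array for each of these 4 probes, and their calls held under every alternative in which they were tested. Z00067510-1, at 2.17 and 2.16 against -1.08 and -0.93, was at least 2.26-fold higher in wild type by Cy3 alone. With normexp and loess the fold of its ratio to the reference was 2.17, under that bound. Its call was lost without either knockout array and its reference channel also differed. Z00049196-1, at 3.13 and 3.53 against 0.00 and 1.01, was at least 1.14-fold higher and lost its call in 6 of the alternatives, among them the repeats without knockout replicate 1 and without either wild-type array.

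Named lower probes of smaller size were measured on all 4 arrays. Z00024757-1 read 2.06 and 2.10 in the knockout against 4.13 and 4.22 in wild type, a 4.27-fold reduction with an adjusted p of 0.000234 (limma). Z00023904-1 read 0.48 and 0.61 against 2.57 and 2.95, a 4.64-fold reduction with an adjusted p of 0.00177 (limma). In both, the 2 arrays of a genotype lay close together and far from the other genotype. Z00005278-1, lower by 3.55-fold, moved from 1.2 and 0.96 in wild type to -0.66 and -0.83 in the knockout. Z00045412-1 moved from 1.07 and 1.09 to -0.78 and -0.75, lower by 3.60-fold, and its adjusted p of 0.00453 rose to 0.0514 without knockout replicate 1 and fell to 0.000121 in another alternative. Z00074008-1 was lower by 3.85-fold with an adjusted p of 0.0425 (limma), at -2.41 and -1.93 against -0.20 and -0.25, and lost its call without any 1 of the 4 arrays. With normexp and loess the reductions of Z00023904-1 and Z00074008-1 were 2.94-fold and 2.19-fold. These 5 probes were chosen after their values had been seen, as the next largest reductions measured on all 4 arrays.

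**Figure D2:**
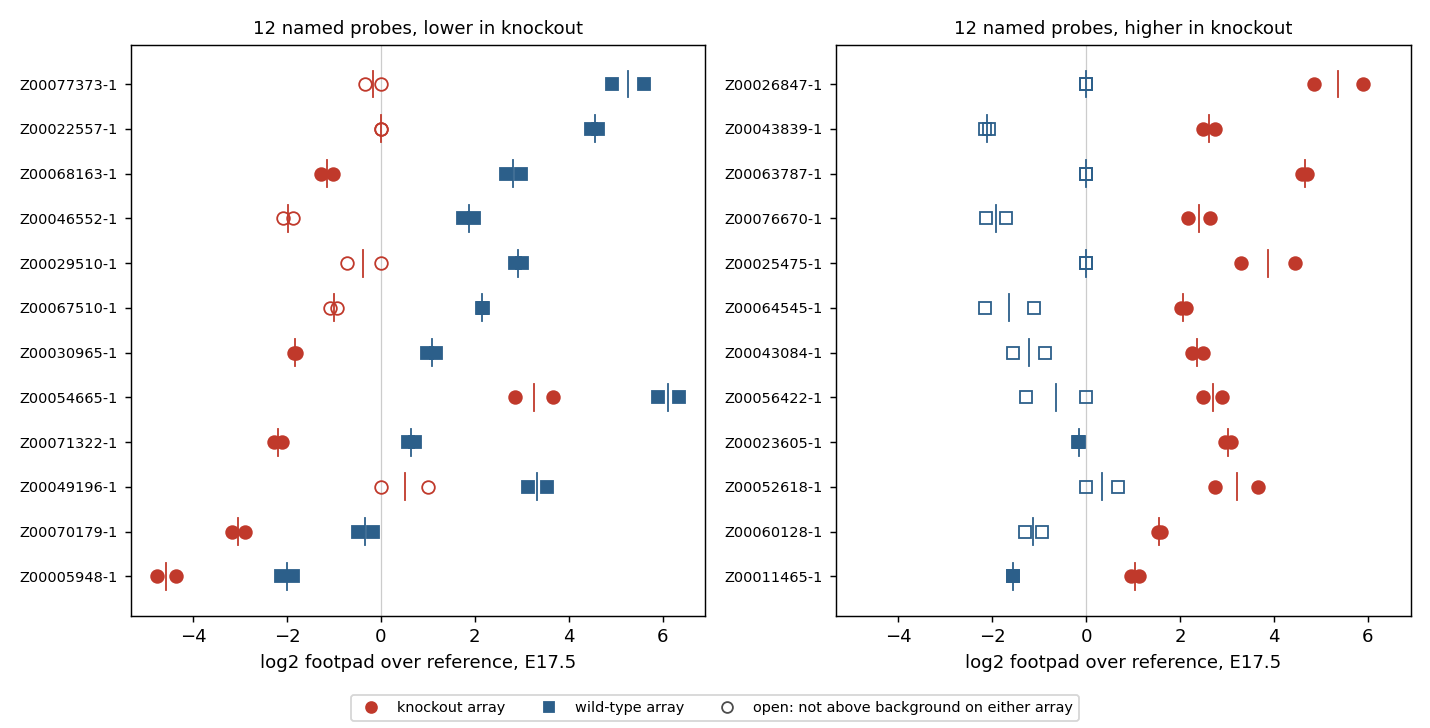
Log2 footpad over reference on each E17.5 array for the 12 called probes with the largest reduction (left) and the 12 with the largest increase (right), with knockout as red circles, wild type as blue squares and vertical bars at the group means (n = 2). Open symbols mark genotypes in which neither array was above background: 6 of the 12 lower probes in the knockout and 10 of the 12 higher probes in wild type.

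Among the higher probes, Z00023605-1 had the largest increase measured on all 4 arrays. It read 3.08 and 2.96 in the knockout and -0.15 and -0.17 in wild type, so that wild-type footpads were near the reference level and knockout footpads well above it. The difference was 3.18 ± 0.17 (SE, n = 2), or 9.08-fold, with an adjusted p of 0.000133 (limma). Z00011465-1 read 1.13 and 0.96 in the knockout and -1.55 on both wild-type arrays. It was higher by 6.04-fold, with an adjusted p of 0.000133 (limma). Both calls held under every alternative tried, and with normexp and loess the increases were 4.62-fold and 3.89-fold.

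Z00031304-1 moved from -0.95 and -1.60 in wild type to 1.23 and 1.09 in the knockout, higher by 5.41-fold with an adjusted p of 0.00366 (limma). Z00055194-1 moved from -0.73 and -0.37 to 1.80 and 1.60, higher by 4.75-fold with an adjusted p of 0.00177 (limma). Z00071822-1 was low in both genotypes, at -2.69 and -2.65 in wild type and -1.07 and -1.17 in the knockout, and was higher by 2.93-fold with an adjusted p of 0.000533 (limma). The arrays of the 2 genotypes were well separated for these 3 probes, and no alternative ended their calls. With normexp and loess Z00031304-1 was higher by 2.35-fold and Z00055194-1 by 2.74-fold. They and the next 5 were chosen after their values had been seen, as increases measured in Cy3 on all 4 arrays.

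Z00031360-1 was higher by 4.21-fold, at 4.05 and 4.15 in the knockout against 1.97 and 2.09 in wild type, with an adjusted p of 0.00475 (limma). Leaving out either knockout array ended that call, and its adjusted p ranged from 0.00018 to 0.0572 over the alternatives. The reference signal of Z00031360-1 was above background on 1 of the 4 arrays, so its fold rests in part on dim reference signals. Z00008487-1, Z00012124-1 and Z00056801-1 were higher by 3.63-fold, 3.61-fold and 3.46-fold. All 3 lost their calls without either knockout array and without wild-type replicate 1. Z00074121-1 was higher by 2.95-fold and lost its call without knockout replicate 1, at an adjusted p of 0.0546 (range over the alternatives from 0.000494). With normexp and loess the folds of these 5 probes lay between 1.63 for Z00074121-1 and 2.31 for Z00031360-1.

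The other higher probes named by size had signal in the knockout only. Z00026847-1 read 4.85 and 5.90 in the knockout and 0.00 on both wild-type arrays, and was at least 1.88-fold higher in the knockout (adjusted p 0.000204, limma). Z00043839-1 read 2.74 and 2.48 against -2.15 and -2.07, with a measured reference on all 4 arrays, and was at least 2.47-fold higher (adjusted p 0.000533, limma). Z00043084-1 read 2.25 and 2.49 against -1.56 and -0.88, at least 2.77-fold higher (adjusted p 0.00252, limma). This was the largest of the bounds among the higher probes. For Z00043084-1 1 outlier spot, on wild-type replicate 1 of E16.5, was left out of the fit.

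Z00063787-1 read 4.59 and 4.70 in the knockout and 0.00 on both wild-type arrays, at least 1.65-fold higher (adjusted p 0.00252, limma). Z00060128-1 read 1.53 and 1.59 against -0.93 and -1.31, at least 1.33-fold higher (adjusted p 0.000311, limma). These 5 calls held under every alternative in which the probes were tested. The calls of Z00076670-1 (at least 1.65-fold), Z00025475-1 (at least 1.32-fold), Z00064545-1 (at least 2.26-fold), Z00056422-1 (at least 1.70-fold) and Z00052618-1 (at least 1.37-fold) did not. Z00076670-1 and Z00064545-1 were lost without either knockout array or wild-type replicate 1, and Z00056422-1 without any 1 of the 4 arrays. Z00025475-1 was lost without knockout replicate 2 or wild-type replicate 2, and Z00052618-1 without knockout replicate 1 or wild-type replicate 2. Of the 24 probes named by size, 7 of the higher and 8 of the lower kept their calls under every alternative in which they were tested. Probes dim in 1 genotype were not tested where Cy3 had to be above background on all 4 arrays.

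The direction of change at E17.5 was compared with that at the earlier stages, whose arrays are separate. On all 3 slides the knockout held positions 1 and 2 and wild type positions 3 and 4. The fit also took the spread of each probe from all 12 arrays. Agreement between stages is therefore not independent of array position, and calls at different stages share that spread. At E16.5 174 probes were called (0.625%; 39 higher, 0.14%, and 135 lower, 0.485%) and at E15.5 908 were called (3.26%; 336 higher, 1.21%, and 572 lower, 2.06%). Of the 104 probes lower at E17.5, 93 were also lower at E16.5, with 49 called, and 88 were lower at E15.5, with 43 called. Their median log2 difference was -1.1 at E17.5, -0.73 at E16.5 and -0.52 at E15.5. The medians over all tested probes were 0.01 at E16.5 and -0.02 at E15.5. Of the 89 higher probes, 83 were higher at E16.5, with 19 called, and 67 were higher at E15.5, with 19 called. Their medians were 1.34, 0.57 and 0.34. Called in the opposite direction at E15.5 were 2 of the higher and 2 of the lower probes, and at E16.5 none was.

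Read the other way, 49 of the 135 probes lower at E16.5 (36.3%) and 19 of the 39 higher there (48.7%) were called in the same direction at E17.5. Of the probes called at E15.5, 43 of 572 lower (7.52%) and 19 of 336 higher (5.65%) were called in the same direction at E17.5. Probes called at all 3 stages numbered 12 higher and 32 lower. The stages differ in how many probes were called, so the shares are given for each list.

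**Figure D3:**
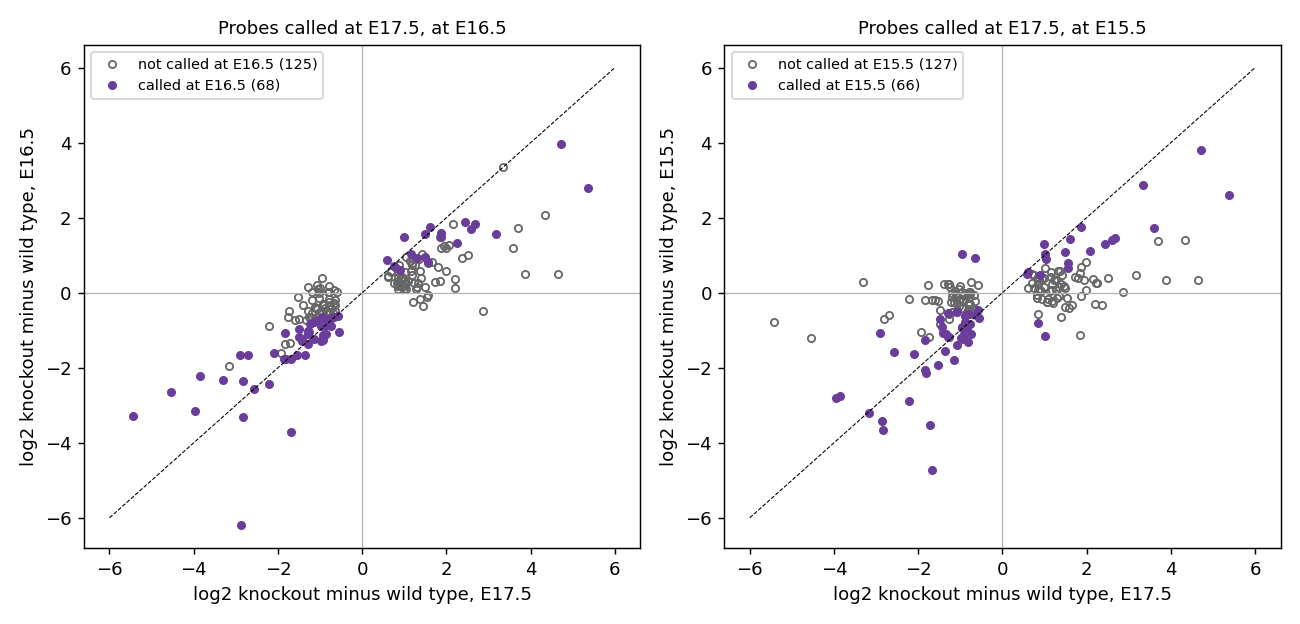
Log2 knockout minus wild type at E17.5 (x axis) for the 193 called probes against the same difference at E16.5 (left) and E15.5 (right), with filled points called at that earlier stage and the dashed line marking equal differences. At E16.5 68 of the 193 were called and at E15.5 66, with most points in the quadrants of equal sign. Differences of probes without signal above background in 1 genotype may rest on surrogate values.

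Probes reduced at all stages include Z00023904-1, lower by 2.88, 2.43 and 2.21 from the first stage to the last on the log2 scale, with limma adjusted p of 0.000857, 0.00174 and 0.00177. Z00024757-1 fell by 1.63, 1.62 and 2.09 at the 3 stages. Neither probe was above background on the knockout arrays at E15.5, so their E15.5 values are not measured sizes. Z00075496-1, named after its values had been seen, was nearly constant at each stage, with knockout arrays between -2.63 and -2.32 and wild-type arrays between -0.71 and -0.17. Of the increases, Z00043839-1 had signal in the knockout and none above background in wild type at each of the 3 stages, at 2.51 and 1.84 in the knockout at E15.5 and 2.61 and 2.24 at E16.5. Z00011465-1 was higher by 1.40, 1.70 and 2.59 at the 3 stages on the log2 scale.

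Of the 193 probes, 61 higher and 42 lower were called at E17.5 and at neither earlier stage. Cy3 was above background on all 4 E17.5 arrays for 26 of those higher and 38 of those lower probes. Z00003171-1, named after its values had been seen, is an example. It read -3.93 and -4.07 in the knockout and -2.38 and -2.56 in wild type at E17.5, lower by 2.88-fold with an adjusted p of 0.00113 (limma), and by 1.56-fold with normexp and loess. At E16.5 the knockout arrays read -1.92 and -2.10 and wild type -1.78 and -2.03, a log2 difference of -0.11 with an adjusted p of 0.789 (limma). A call at 1 stage and not at another does not show a difference between them, which was tested as follows.

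The change of the knockout difference from E15.5 to E17.5 was called for 30 probes (0.108%), 17 upward (0.0611%) and 13 downward (0.0467%), with 5204 at an unadjusted p under 0.05. The difference was larger at E17.5 for 10 of them and at E15.5 for 20, and 24 had opposite signs at the 2 stages. This count was 9 without knockout replicate 1, 1 without knockout replicate 2, 18 when wild-type replicate 1 was left out and 14 when wild-type replicate 2 was. It was 255 with normexp and loess, 1 with array weights and 2 with the replicate number as a block. Between E16.5 and E17.5 limma called 0 probes, with 1252 at an unadjusted p under 0.05. That count was 23 with normexp and loess, 3 with Cy3 alone, 3 with the authors' table, 5 with array weights and 43 with no detection filter.

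In 1 pattern the wild-type signal rose with age and the knockout signal did not. Z00077373-1 in wild type read 1.55 and 0.00 at E15.5, 3.04 and 3.59 at E16.5, and 5.61 and 4.93 at E17.5. The knockout arrays stayed between -0.34 and 0.30 at all stages and none was above background. The knockout difference changed by -4.66 from E15.5 to E17.5 (adjusted p 0.0434, limma). Z00029510-1 in wild type read -0.56 and 0.00 at E15.5, 2.07 and 2.20 at E16.5 and 3.00 and 2.86 at E17.5. Its knockout arrays lay between -0.73 and 0.00 throughout, and its difference changed by -3.58 (adjusted p 0.0177, limma). Neither genotype of either probe was above background at E15.5, so both changes rest in part on signals not above background. Stage and slide cannot be told apart in these levels, while each knockout difference is taken within a slide.

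Z00070179-1 was measured on all arrays of all stages. Wild type read 0.01 and -0.13 at E15.5, -1.03 and -1.11 at E16.5 and -0.48 and -0.17 at E17.5, while the knockout went from -0.80 and -0.53 to -2.81 and -2.63 and then -3.16 and -2.89. The knockout difference grew from -0.60 to -2.70, a change of -2.10 with an adjusted p of 0.0217 (limma). Z00030965-1, measured on all arrays as well, changed by -1.83 (adjusted p 0.0423, limma), from a difference of -1.07 to one of -2.90. Z00023605-1 went the other way. Its knockout arrays read -0.47 and -0.88 at E15.5, 0.31 and 0.35 at E16.5 and 3.08 and 2.96 at E17.5, and its wild-type arrays -0.94 and -1.36, -1.30 and -1.16, and -0.15 and -0.17. The difference grew by 2.71 with an adjusted p of 0.0174 (limma). At E15.5 this probe was above background on 1 array of each genotype, so its starting difference was only partly measured.

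In other probes the reduction was smaller at E17.5 than at E15.5. Z00008117-1 read -0.68 and -1.41 in the knockout at E15.5, 1.04 and 0.48 at E16.5 and 4.06 and 3.56 at E17.5. Wild type read 3.82 and 3.53, then 4.50 and 4.41, then 5.53 and 5.46. The reduction went from 4.72 on the log2 scale to 1.68, a change of 3.04 with an adjusted p of 0.0423 (limma). The E17.5 difference alone had an adjusted p of 0.0315 (limma), lost its call without any 1 of the 4 arrays, and ranged from 5.25e-05 to 0.231 over the alternatives. Its reference channel also differed between genotypes at E17.5. Neither knockout array was above background at E15.5, so the E15.5 reduction and the change of 3.04 are not measured sizes.

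Z00054665-1 was at -0.23 and 0.00 in the knockout at E15.5, -1.26 and -1.24 at E16.5 and 3.66 and 2.85 at E17.5, against 2.87 to 6.35 over the 6 wild-type arrays. No knockout array was above background at E15.5 or E16.5, and both were at E17.5. The change of its difference from E16.5 to E17.5 had an adjusted p of 0.256 (limma). Z00010999-1 and Z00023563-1 were called lower at E15.5 and not called at E17.5. At E15.5 each was above background on 1 wild-type array and on no knockout array, so the E15.5 differences and the changes from them rest largely on signals not above background. Z00010999-1 read -2.30 and -2.34 in the knockout and 0.18 and -0.41 in wild type at E15.5, and 2.43 and 2.34 against 2.25 and 1.98 at E17.5. Its difference changed by 2.47 (adjusted p 0.0423, limma). Z00023563-1 went from a difference of -2.17 at E15.5 to 0.06 at E17.5, a change of 2.23 (adjusted p 0.0423, limma).

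Z00005380-1 was high over the reference, between 5.79 and 8.19 on all 12 arrays. It was higher in the knockout by 1.04 at E15.5 and lower by 0.96 at E17.5 (adjusted p 0.016, limma), a change of -2.0 with an adjusted p of 0.0174. At E17.5 its direction turned to 0.07 with normexp and loess and to 0.12 with Cy3 alone. Its reference signal was above background on 2 of the 4 E17.5 arrays. Leaving out any 1 of those 4 arrays also ended its call.

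**Figure D4:**
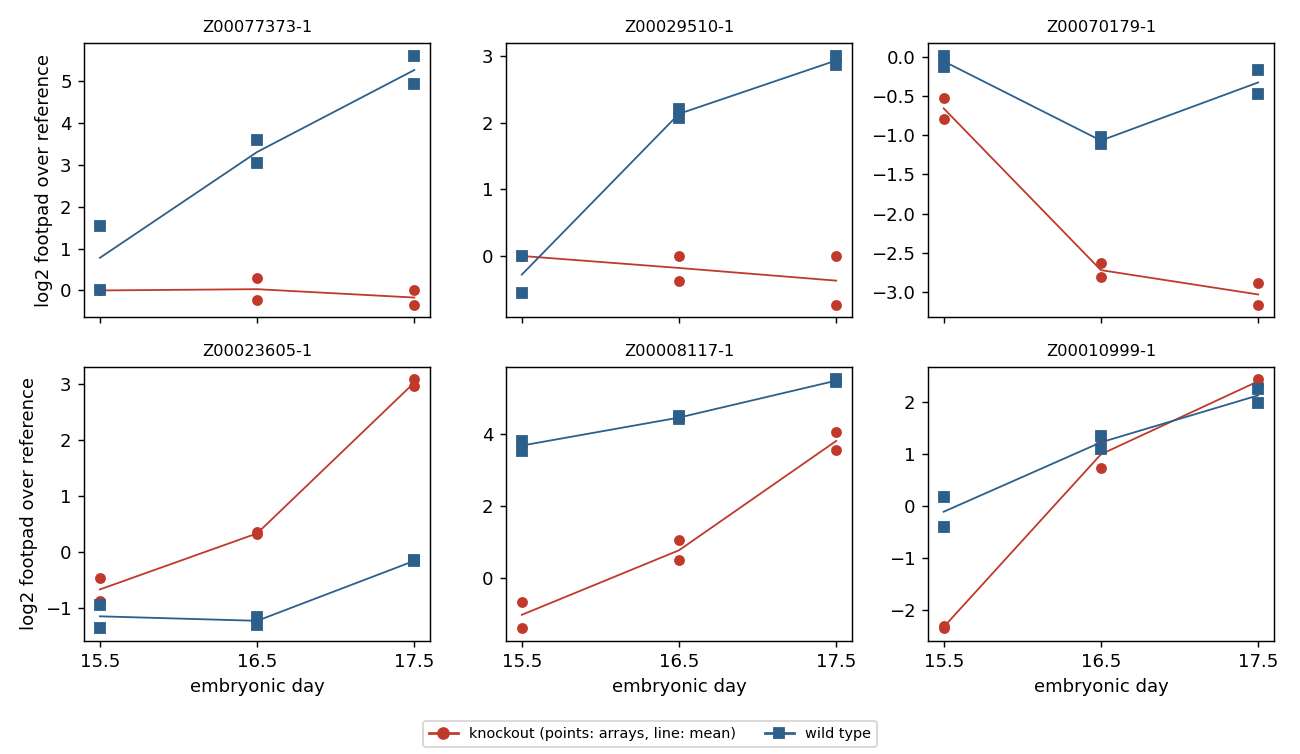
Log2 footpad over reference by embryonic day for 6 probes whose knockout difference changed between E15.5 and E17.5, with points for arrays and lines through the means of 2 arrays. In Z00077373-1 and Z00029510-1 wild type rises and the knockout stays near 0, where no signal was measured; in Z00070179-1 and Z00023605-1 the genotypes part with age; in Z00008117-1 and Z00010999-1 they approach each other from a knockout that was not above background at E15.5.

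Probes that share sequence may measure the same or related transcripts, but the transcripts of these probes are not known here. Of the tested probes, 1679 formed 1009 pairs with at least 20 bases in common, and 14 pairs had all 60. In 857 of the 1009 pairs both probes had the same sign of the knockout difference, and the median gap between the 2 differences was 0.06 on the log2 scale. Only 7 pairs held a called probe. All 7 had the same sign in both probes, with a median gap of 0.63, and both probes were called in 1 of them. The pair is shown by 30 bases of each probe, with the 23 shared bases in capitals.

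Z00034984-1: tttatttTATGAGAAATGTAATGCGATTTT
Z00057782-1: TATGAGAAATGTAATGCGATTTTattactg

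The stretch lies at bases 38 to 60 of Z00034984-1 and at bases 1 to 23 of Z00057782-1. Z00057782-1 read 4.06 and 4.09 in the knockout and 5.47 and 5.42 in wild type, lower by 2.59-fold with an adjusted p of 0.00284 (limma). Z00034984-1 read 3.19 and 3.13 against 3.90 and 3.91, lower by 1.67-fold with an adjusted p of 0.0408 (limma), and its reference channel differed too. Both were reduced at all 3 stages, by 1.56, 1.67 and 1.37 on the log2 scale for Z00057782-1 and by 1.09, 0.88 and 0.74 for Z00034984-1 from E15.5 to E17.5.

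Z00070655-1 carries the same 60 bases as Z00054665-1 and read 3.43 and 3.09 in the knockout against 5.33 and 5.48 in wild type. Its log2 difference was -2.14 ± 0.43 (SE, n = 2), with an adjusted p of 0.0711 (limma), beside -2.87 for Z00054665-1 at 0.00457. The 2 probes had the same direction and fell on opposite sides of the threshold. Z00059502-1 shares 57 bases with Z00025525-1. Its log2 ratio was lower in the knockout by 1.08 (adjusted p 0.00683, limma), while that of Z00025525-1 differed by -0.22 (adjusted p 0.785, limma). The reference signal of Z00059502-1 was not above background on any of the 4 arrays. Its mean log2 Cy3 after normexp, loess and Aquantile was higher in the knockout, at 8.19 against 7.87 in wild type. The direction for Z00059502-1 thus depends on the processing. Z00024977-1 and Z00056893-1, with 58 shared bases, were within 0.02 of each other, at 0.69 and 0.67, with adjusted p of 0.0445 and 0.064 (limma).

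Calls were not spread evenly over probe classes. The probes were cut into 3 bins of nearly equal size by the share of G and C among their 60 bases. Of those with 15% to 40% GC, 0.543% were higher and 0.358% lower in the knockout (50 and 33 of 9216). Of those with 48.3% to 86.7% GC, 0.108% were higher and 0.323% lower (10 and 30 of 9285). The median log2 difference over all probes was 0.10 in the lowest bin and -0.10 in the highest. The median GC content was 40% for the 89 higher probes, 45% for the 104 lower and 45% for all tested. With normexp and loess the medians were 0.08 and -0.05, and with Cy3 alone 0.12 and -0.13, so the direction was the same in all 3 settings.

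In the lowest and the highest GC bin, both knockout arrays lay on 1 side of both wild-type arrays. Arrays of 1 genotype also differed from each other. For the lowest GC bin, the median deviation from the mean of the 4 arrays was 0.03 and 0.06 on the knockout arrays and -0.08 and -0.01 on the wild-type arrays. For the highest bin it was -0.03 and -0.07 on the knockout arrays and 0.09 and 0.01 on wild type. Wild-type replicate 1 lay farthest from the others in both. The part of base composition in the calls was not tested.

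The probes were also cut into 5 bins by Cy3 level. The dimmest bin held 52 of the 89 higher probes and 21 of the 104 lower ones, or 0.934% and 0.377% of its 5566 probes. The brightest bin held 2 and 7, or 0.0359% and 0.126%. Lower probes were most frequent in the middle bin, with 32 calls (0.575%). The part of Cy3 detection in this split was not tested.

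**Figure D5:**
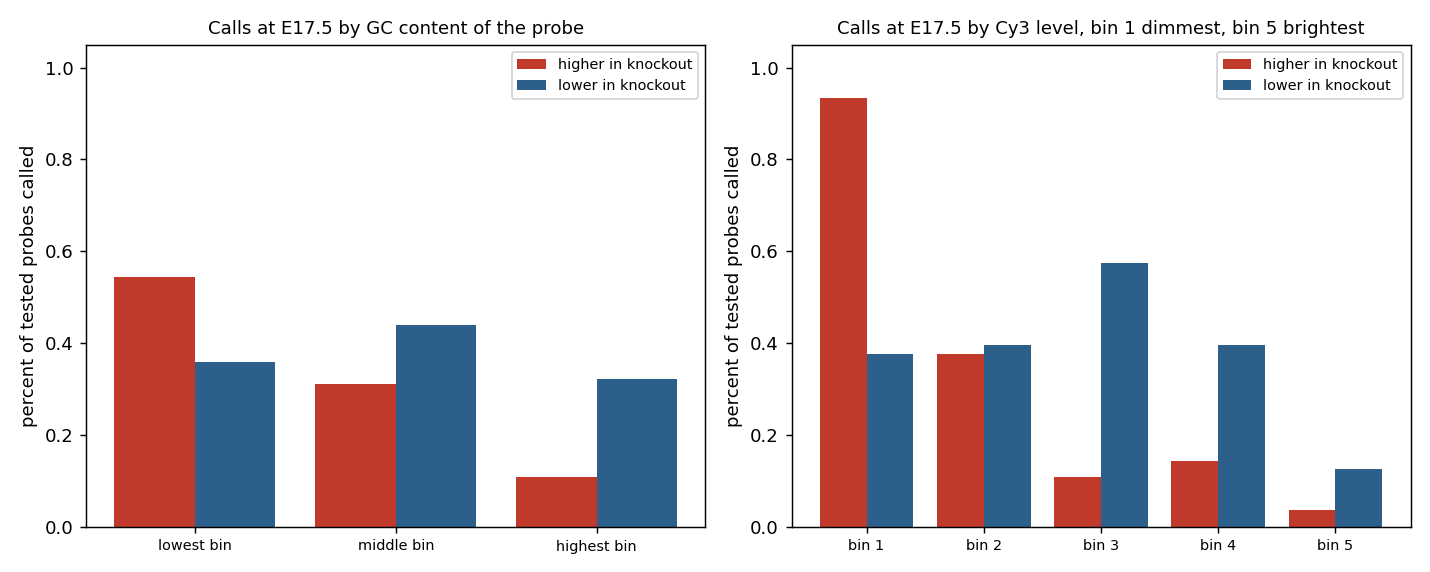
Percent of tested probes called higher (red) and lower (blue) in the E17.5 knockout, by 3 bins of probe GC content (left) and 5 bins of Cy3 level from dimmest (bin 1) to brightest (bin 5, right). Higher calls fall from 0.543% to 0.108% from the lowest to the highest GC bin and from 0.934% to 0.0359% from the dimmest to the brightest bin.

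Probes were also classed by their level over the reference. Among the 3315 probes at least 4-fold above the reference, 11 were higher and 24 lower in the knockout, with a median log2 difference of -0.13. Among the 2503 at least 4-fold below it, 17 were higher and 18 lower, with a median of 0.22. These 2 medians became 0.00 and 0.05 with normexp and loess, and -0.05 and 0.20 with Cy3 alone. The standard deviation of log2 ratios was 1.77 and 1.73 on the knockout arrays and 1.84 and 1.81 on wild type.

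Wild-type change between E15.5 and E16.5, from arrays not used at E17.5, gave a further class. Of the 1791 probes that rose at least 2-fold in wild type over that day, 12 were higher and 12 lower in the E17.5 knockout (0.67% each), with a median difference of 0.03. Of the 2128 that fell at least 2-fold, 9 were higher and 4 lower (0.423% and 0.188%), with a median of 0.14. Among the remaining 23913 probes 68 were higher and 88 lower (0.284% and 0.368%), with a median of -0.01.

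A small set of probes could be tied to a gene through the RefSeq gene-start windows of GRCm38.p6, which run from 250 bases before to 50 bases after each start. On the same strand, 75 tested probes shared at least 30 consecutive bases with the window of 1 gene, at least 20 of them after the start, and they matched 74 genes. None was called by limma, against 0.693% of all tested probes, and 3 had an unadjusted p under 0.05. Their log2 differences ran from -0.61 to 0.35 with a median of -0.07, and 29 were above and 44 below 0. Of the 544 genes on the lists for Wnt, Eda, Hedgehog, sweat gland, epidermal, cell cycle and other cell type markers, 3 were in this set.

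Mia, which encodes a secreted protein first found in melanoma cells and was listed with sweat gland genes, read 1.33 and 1.37 in the knockout and 1.64 and 1.46 in wild type. Its log2 difference was -0.19 ± 0.31 (SE, n = 2), with an adjusted p of 0.806 (limma). Its probe matched the window at chromosome 7, 27181100 to 27181399, minus strand. Madcam1, an adhesion molecule for lymphocyte homing on the Eda list, read 0.36 and 0.47 against 0.73 and 0.59, with an adjusted p of 0.554 (limma), at chromosome 10, 79664309 to 79664608, plus strand. Tyms, thymidylate synthase of the cell cycle list, read -1.12 and -1.01 against -1.03 and -1.19, with an adjusted p of 0.944 (limma), at chromosome 5, 30073576 to 30073875, minus strand. The Tyms match covered 44 bases and ended 40 bases after the start, inside the window.

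Lce1l, a cornified envelope gene of the upper epidermis, read 2.03 and 1.99 in the knockout and 2.63 and 2.24 in wild type. Its probe matched the window over 30 bases only, the minimum required. The arrays did not overlap, but the difference of -0.42 ± 0.26 (SE, n = 2) had an adjusted p of 0.498 (limma). Pla2g2d, a secreted phospholipase, had the lowest p of the set. It read 1.1 and 1.01 against 1.62 and 1.39, a difference of -0.46 ± 0.12 (SE, n = 2) with an adjusted p of 0.141 (limma). Fau, a housekeeping gene whose product yields a ribosomal protein, had 2 probes, with differences of 0.04 and -0.02. These 3 genes were picked after the matches had been seen.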

How the data were processed

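Footpad RNA of 12 samples was hybridised against a common reference on 2-colour Agilent arrays. Per the file headers, Agilent Feature Extraction 9.5.1.1 detrended and dye-normalized the spot intensities and replaced some dim signals by surrogates. It wrote the deposited log10 ratio, Cy5 over Cy3. A series table of the authors holds log10 values for 25030 spots. Its scale and direction were read from its agreement with the array files (differences between E17.5 arrays correlated at 0.913 to 0.959 across spots), its columns have medians of 2.573 to 2.588 at E17.5, and the sources used here do not give how its spots were chosen and centred. It served as an alternative only.

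The deposited log10 ratio was multiplied by 3.322, with its sign turned, to give log2 of footpad over reference. Control spots and outlier spots were left out, and the spots of each probe were averaged. Of 42006 probes, 27833 had Cy3 well above background on at least 2 of the 4 E17.5 arrays, and 27832 could be tested. limma 3.58.1 in R 4.3.3 was fitted to the 6 group means of all 12 arrays, with 6 residual and 3.1 prior degrees of freedom, Benjamini-Hochberg adjustment and a threshold of 0.05. Precision is limited by the number of arrays. Bounds for dim probes used Cy3 after normexp with an offset of 50, loess and Aquantile.

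Named probes were the 12 largest called differences in each direction whose genotypes did not overlap and whose signal was measured in the higher group, and up to 4 per direction for each change between stages. The 10 largest per direction measured on all 4 arrays were added after values had been seen. The members and lists were chosen with earlier results of these data known. The planned naming of probes through protein sequences was not run, and the match to gene-start windows was added after the reference tables had been seen. Of the tested probes, 178 matched a window, 164 of them that of 1 gene; matches that lay mostly before the start are not of the annotated transcript and are not reported.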

Additional observations from a re-analysis of the deposited data

Results flagged for a closer look

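The probes listed here had a knockout difference that changed between E15.5 and E17.5, in limma's test of that change at an adjusted p under 0.05. All values are changes of log2 knockout minus wild type. The difference moved downward by -4.66 for Z00077373-1, -3.58 for Z00029510-1, -2.10 for Z00070179-1, -2.0 for Z00005380-1 and -1.83 for Z00030965-1. It moved upward by 3.04 for Z00008117-1, 2.71 for Z00023605-1, 2.47 for Z00010999-1 and 2.23 for Z00023563-1. Z00070179-1, Z00005380-1 and Z00030965-1 were above background in Cy3 on every array of both stages. The reference of Z00005380-1 was above background on 2 of the 4 E17.5 arrays, so its change rests in part on dim reference signals. Z00077373-1 and Z00029510-1 were not above background in the knockout at any stage. At E15.5 Z00008117-1, Z00010999-1 and Z00023563-1 were above background on no knockout array, and Z00023605-1 on 1 array of each genotype. The changes of these 6 probes rest in part or in whole on dim signals and are not measured sizes. The adjusted p-values of these 9 probes lay between 0.0174 and 0.0434 (limma), and the count of such calls fell to 1 without knockout replicate 2 at E17.5.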

How the results depend on the processing

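The count of probes called at E17.5 (193) was 428 with normexp and loess, 416 with Cy3 alone and 1970 with array weights, and 44 to 108 with 1 E17.5 array left out. It stayed between 132 and 218 in the other alternatives. With normexp and loess 139 of the 193 were called again, and with Cy3 alone 173. The direction stayed the same for 188 of the 193 with normexp and loess and for 189 with Cy3 alone, and turned for the rest. The count for the change since E15.5 (30) was 255 with normexp and loess, 144 with Cy3 alone, 68 with the authors' table, 1 with array weights and 57 with both channels above background on all 4 arrays, and 1 to 18 with 1 array left out. The count for the change since E16.5 (0) was 23, 3, 3 and 5 in the first 4 of these settings and 43 with no filter, and 0 to 2 with 1 array left out. Z00005380-1 turned from -0.96 to 0.07 with normexp and loess (adjusted p 0.812, limma) and to 0.12 with Cy3 alone (adjusted p 0.693, limma). The cause of these moves was not tested. Same-numbered arrays of the 2 genotypes deviated together with a correlation of 0.09 at E17.5, 0.16 at E16.5 and 0.43 at E15.5. The numbers were not taken as pairs because of the low value at E17.5, although the value at E15.5 was higher. With the replicate number as a block, 200 probes were called at E17.5, 132 of them among the 193, 2 for the change since E15.5 and 0 for that since E16.5. Where Cy3 was dim in 1 genotype, only a bound on the difference in Cy3 is given.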
